A study of Mus musculus with 10 samples.

Results

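The genes described here are regulators of chromatin and of sister-chromatid cohesion, together with a ubiquitin ligase, that are recurrently mutated in leukaemia. They were read in mouse haematopoietic stem cells (HSCs), the rare marrow cells that maintain all blood lineages. Of 10 genes proposed (Kmt2a, Setd2, Kdm6a, Phf6, Bcor, Bcorl1, Stag2, Smc1a, Atrx and Cbl), 9 could be read, among the 2721 genes named by the part of the table used. Bcor was left out because its row ID names several genes. The table holds 10 single-colour arrays, 5 of Jam2+ and 5 of Jam2- HSCs, each numbered 1, 2, 4, 5 and 6. All cells were sorted as CD150+ CD48- c-kit+ Sca-I+ and negative for lineage markers, from male wildtype C57BL/6 SJL mice, and the groups differ in whether Jam2, a junctional adhesion molecule, was on the cell surface. The comparison asks which transcripts differ between HSCs with and without that protein. The labels give 5 mice for 10 arrays and do not say which arrays share a mouse, so p-values measure the spread between these arrays only.

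Chromatin regulators set which genes a stem cell can use. Kmt2a is a methyltransferase that marks active promoters, while Kdm6a removes the repressive mark laid down by Polycomb proteins. Cohesin, a ring-shaped complex that contains Smc1a and either Stag1 or Stag2, holds sister chromatids together and shapes chromosome loops. Mutations in such genes are common in myeloid leukaemia and in the clonal expansions that can come before it, and several of them change how HSCs self-renew.

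In the table used, row IDs are displaced from their values, and the genes were read by an inferred placement: the last 13.5% of the 41345 IDs, from ID 17510823 on, were set in file order on the same number of rows from the top of the table. Levels are the deposited log2 signals. Among these IDs, called the block here, the median was 11.63 for 27 rows of ribosomal proteins, a family that every living cell uses. For 140 rows of odour and pheromone receptors, which belong to sensory neurons, it was 3.63. The medians were 5.93 and 5.09 with the IDs as deposited. The placement had been chosen with such levels in view, so they are a description and not an independent test of it.

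The sex of the mice gave a further reading. Xist, an RNA made from the silenced X chromosome of female cells, lay at 4.61 on the displaced rows, against 9.35 as deposited. The Y-linked genes Eif2s3y, Uty and Kdm5d lay at 8.85, 7.95 and 7.69, against 2.94, 3.83 and 8.57 as deposited. With the block set 1 row earlier, these 3 genes lay at 7.69, 3.55 and 5.02, and Xist at 3.72. With it 1 row later, they lay at 5.61, 8.61 and 8.85, and Xist at 7.09. Some of these single genes thus read lower (Xist) or higher (Uty and Kdm5d) on a neighbouring row. On the X chromosome, where 6 of the 9 genes lie, 12 rows of broadly used families had a median of 8.43 and 43 rows of testis and placenta families had 4.53. As deposited, these medians were 5.40 and 5.97. On chromosome 9, which carries Kmt2a, Setd2 and Cbl, 12 rows of broadly used families had a median of 9.78 and 133 receptor rows had 3.59. As deposited, the chromosome 9 medians were 6.11 and 5.26. Those 133 rows are part of the 140 receptor rows above. Every gene identity below rests on this placement.

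**Figure D1:**
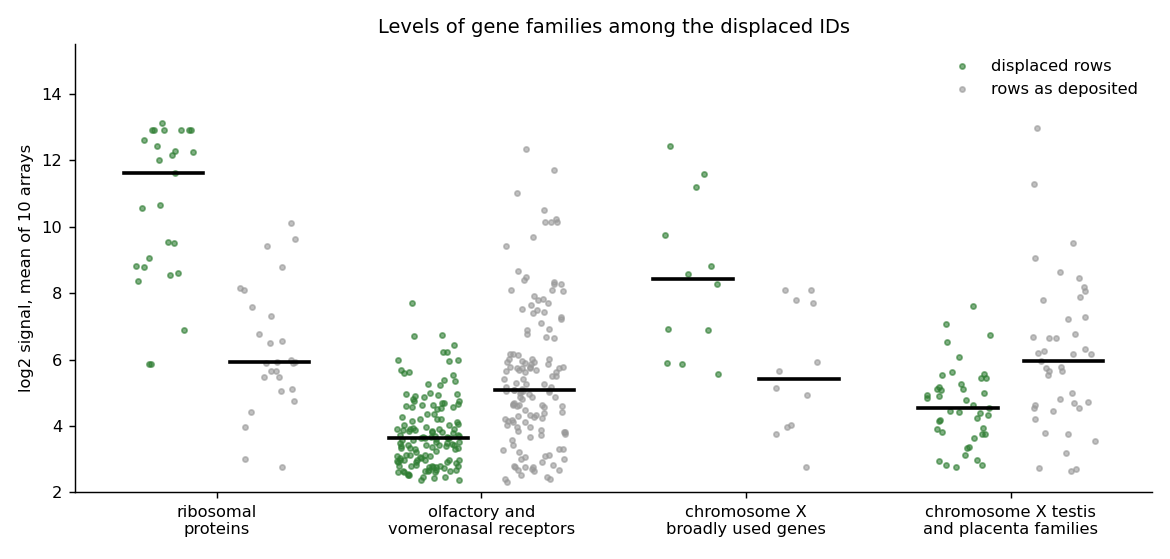
Mean log2 signal over 10 arrays (y axis) of rows in 4 groups of gene families (x axis), for the IDs of the block on displaced rows (green) and as deposited (grey); each point is a row and bars are medians. On displaced rows the ribosomal protein median was 11.63 and the receptor median 3.63; as deposited they were 5.93 and 5.09.

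Array medians lay between 5.96 and 6.05, and the mean Pearson r of an array with the others, across all rows, ran from 0.968 to 0.980. Jam2- replicate 6 (0.968) and Jam2+ replicate 1 (0.970) stood apart from the rest. Of 15 HSC markers listed, 3 fell in the block: Robo4 at 9.57, Esam at 8.23 and Jam3 at 6.25. The genes of the sort itself were outside it. The 5 T cell markers in the block, of 10 listed, had a median of 5.31, with Cd3e at 5.68 and Thy1 at 6.96. The 3 monocyte and macrophage markers, of 9, had a median of 4.51, with Cx3cr1 at 6.88 and Ccr1 at 4.51. Of the B cell, erythroid, megakaryocyte and endothelial lists, 1 of 9, 2 of 10, 1 of 9 and 2 of 7 markers fell in the block. These were Btk at 8.76 (B cell), Epor at 7.62 and Gata1 at 6.74 (erythroid), Was at 8.99 (megakaryocyte), and Robo4 and Esam, which are in both the endothelial and the HSC list. With 1 or 2 genes a list, these levels do not tell whether cells of those types were in the samples. The median differences of these 4 lists between the groups were -0.06, -0.03, 0.08 and -0.05. No gene of these lists differed at an unadjusted limma p under 0.05, apart from Jam3 in the HSC list, which was lower in Jam2+ HSCs by a difference of -0.25 (limma adjusted p = 1).

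Of 11 neutrophil markers listed, 5 fell in the block, and 0 passed the test. Their mean level per array was 5.09 to 5.20 in Jam2+ and 5.28 to 6.99 in Jam2- HSCs. Ngp, a neutrophil granule protein, differed by -1.56, Camp by -1.72 and Ltf by -0.77, with unadjusted limma p-values of 0.00904, 0.0148 and 0.0441 and an adjusted p of 1 for each. Camp spanned 4.13 to 4.77 on Jam2+ and 4.85 to 7.88 on Jam2- arrays, without overlap (exact permutation p = 0.00794). That test takes all 10 arrays as independent, though some may share a mouse. The groups did not overlap for 0.992% of block genes. The SD on Jam2+ and Jam2- arrays was 0.27 and 1.49 for Camp, and 0.17 and 1.24 for Ngp. For Ltf it was 0.07 and 0.86. Cybb differed by -0.20 and Mmp8 by -0.13, with unadjusted limma p-values of 0.129 and 0.231 and an adjusted p of 1 for both. What part these levels have in the values below was not tested. In bulk samples such as these, fewer cells of a type and less RNA per cell cannot be told apart.

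Promoter sequences for 7 of the 9 genes were found in RefSeq's tables of GRCm38.p6, in the 250 bases before the annotated start. The promoters of Kmt2a and Cbl are shown because this pair had the highest correlation across the arrays, which did not pass after adjustment, as described further on, and that of Atrx because it alone of the 7 held no GGGCGG. Capitals mark GGGCGG, the core of SP-family sites, and CCAAT, on either strand, and each sequence is written 5′ to 3′ on the strand of its gene.
Kmt2a, chr9:44881290-44881539, minus strand: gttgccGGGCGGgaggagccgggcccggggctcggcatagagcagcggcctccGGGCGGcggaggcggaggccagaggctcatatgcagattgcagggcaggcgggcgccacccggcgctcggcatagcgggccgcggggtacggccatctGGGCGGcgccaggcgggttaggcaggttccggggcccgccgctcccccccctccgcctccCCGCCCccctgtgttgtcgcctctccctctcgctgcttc
Cbl, chr9:44234047-44234296, minus strand: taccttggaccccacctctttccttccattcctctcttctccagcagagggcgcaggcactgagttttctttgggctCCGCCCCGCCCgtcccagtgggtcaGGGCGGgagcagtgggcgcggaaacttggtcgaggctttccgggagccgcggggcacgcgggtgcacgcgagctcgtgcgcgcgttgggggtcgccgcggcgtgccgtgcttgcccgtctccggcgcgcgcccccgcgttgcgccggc
Atrx, chrX:105929373-105929622, minus strand: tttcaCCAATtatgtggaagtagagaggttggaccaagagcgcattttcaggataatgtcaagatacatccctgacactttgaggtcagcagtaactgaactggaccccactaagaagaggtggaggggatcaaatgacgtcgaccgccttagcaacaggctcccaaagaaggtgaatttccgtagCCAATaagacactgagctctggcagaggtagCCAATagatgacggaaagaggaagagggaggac

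The Kmt2a and Cbl windows were 76.8% and 71.6% G and C, with 29 and 33 CpG dinucleotides, against medians of 52.4% and 6 over 32851 promoters of the same length. The Atrx window was 48.4% G and C, with 6 CpG dinucleotides. GGGCGG stood in 6 of the 7 windows (Kmt2a, Cbl, Setd2, Kdm6a, Bcorl1 and Smc1a) and in 32.7% of all promoters. CCAAT stood in 2 of the 7 (Atrx and Smc1a) and in 33.8% of all. The E-box CACGTG stood in 2 of the 7 (Kdm6a and Bcorl1) and in 6.02% of all. CCGGAAG, a long and strict form of the ETS site, and the TATA box TATAAA stood in 0 of the 7, against 6.91% and 12.4% of all promoters. Shorter or other forms of the ETS site were not searched. These matches were searched on both strands and describe letters only.

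None of the 9 genes passed the test between Jam2+ and Jam2- HSCs. The levels of 8 genes lay above all 140 receptor rows, whose highest was 7.69, and Bcorl1, at 7.64, lay just under that row. In limma, 0 of the 9 genes were called higher and 0 lower at an adjusted p under 0.05, and over all 41345 rows 0% were called higher and 0% lower. At an unadjusted p under 0.05 there were 0 of the 9 genes, against 4.23% of the 2721 block genes and 4.08% of all rows. The exact permutation test over all assignments of 5 of the 10 arrays also gave 0 of 9, with p-values from 0.206 to 0.992. The groups overlapped for all 9 genes, and were separate for 0.992% of block genes. Differences below are Jam2+ minus Jam2-, on the log2 scale, and the limma adjusted p was 1 for each of the 9.

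**Figure D2:**
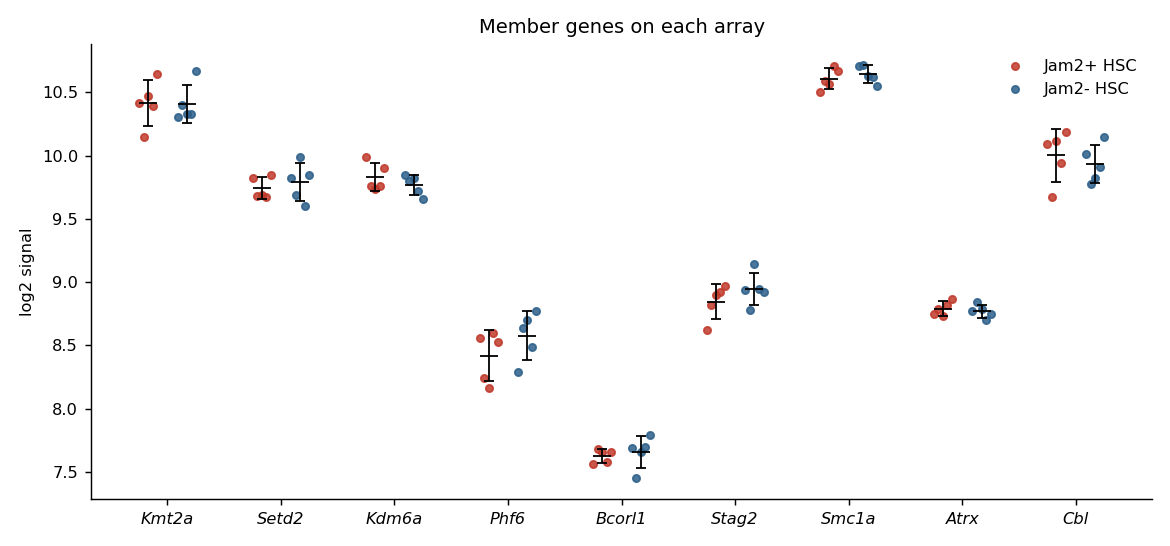
Deposited log2 signal (y axis) of the 9 genes (x axis) on each Jam2+ (red) and Jam2- (blue) array, with the mean and SD of 5 arrays in black. The points of the groups overlap for every gene; since brightness depends on the probes, levels of different genes are not ranked.

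Kmt2a and Setd2 write methyl marks on histone H3. Kmt2a, whose fusions drive a class of acute leukaemia, read 10.42, 10.15, 10.47, 10.39 and 10.65 on Jam2+ arrays 1, 2, 4, 5 and 6. It read 10.31, 10.40, 10.33, 10.33 and 10.67 on the Jam2- arrays in the same order. The number 6 arrays were the highest of both groups. The means were 10.41 ± 0.18 (SD, n = 5) and 10.41 ± 0.15 (SD, n = 5), a difference of 0.01 with a 95% interval of -0.23 to 0.24. Setd2, the enzyme that trimethylates lysine 36 on transcribed genes, read 9.82, 9.68, 9.69, 9.67 and 9.85 on Jam2+ arrays and 9.82, 9.69, 9.99, 9.60 and 9.85 on Jam2- arrays. The Jam2- arrays held both its highest and its lowest value. Its difference was -0.05, with an interval of -0.24 to 0.14.

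Kdm6a, the X-linked demethylase of the Polycomb mark, read 9.99, 9.76, 9.74, 9.76 and 9.90 on Jam2+ arrays and 9.85, 9.80, 9.82, 9.72 and 9.66 on Jam2- arrays. Its values spanned 9.66 to 9.99, with the highest on Jam2+ replicate 1 and the lowest on Jam2- replicate 6, the arrays that stood apart. The difference was 0.06, with an interval of -0.11 to 0.23; without those 2 arrays it was -0.00766. Uty, its Y-linked relative, averaged 7.92 ± 0.30 (SD, n = 5) on Jam2+ arrays, where it spanned 7.43 to 8.23, and 7.98 ± 0.17 (SD, n = 5) on Jam2- arrays. The Uty difference was -0.07, with an interval of -0.39 to 0.26. Whether probes of these related genes also bind each other's RNA was not tested.

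Phf6 and Bcorl1 are nuclear proteins of transcriptional repression. Phf6, a zinc-finger protein mutated in T cell and myeloid leukaemia, had the widest spread of the 9 genes within the groups, an SD of 0.20. It read 8.56, 8.24, 8.16, 8.60 and 8.53 on Jam2+ arrays and 8.29, 8.64, 8.70, 8.49 and 8.77 on Jam2- arrays. Both groups reached from below 8.3 to 8.6 or above. Its difference of -0.16 was the largest in size, with an interval of -0.43 to 0.11, an unadjusted limma p of 0.222 and an exact permutation p of 0.206. Bcorl1, a corepressor related to Bcor, read 7.56, 7.68, 7.66, 7.58 and 7.66 on Jam2+ arrays and 7.69, 7.45, 7.66, 7.70 and 7.79 on Jam2- arrays. The Jam2- values enclosed the Jam2+ values. Its difference was -0.03, with an interval of -0.20 to 0.14.

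The cohesin subunits Stag2 and Smc1a did not pass the test either. Stag2, the X-linked subunit most often mutated in cohesin-mutant leukaemia, read 8.62, 8.82, 8.90, 8.92 and 8.97 on Jam2+ arrays and 8.94, 8.78, 9.14, 8.95 and 8.92 on Jam2- arrays. The lowest value was on Jam2+ replicate 1 and the highest on Jam2- replicate 4. The means were 8.85 ± 0.14 (SD, n = 5) and 8.95 ± 0.13 (SD, n = 5), and the difference of -0.10 had an interval of -0.30 to 0.10. Stag1, the alternative to Stag2 in the complex, averaged 8.83 ± 0.18 (SD, n = 5) and 8.78 ± 0.18 (SD, n = 5), a difference of 0.05 with an interval of -0.21 to 0.30. Smc1a, a core subunit of the ring, read 10.50, 10.59, 10.57, 10.71 and 10.67 on Jam2+ arrays and 10.71, 10.72, 10.63, 10.62 and 10.55 on Jam2- arrays. All 10 values lay between 10.50 and 10.72. Its difference was -0.03, with an interval of -0.19 to 0.12.

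Atrx and Cbl complete the set. Atrx, a remodeller that places a histone variant at repeats and telomeres, read 8.75, 8.79, 8.73, 8.82 and 8.87 on Jam2+ arrays and 8.77, 8.84, 8.79, 8.70 and 8.75 on Jam2- arrays. It had the narrowest spread of the 9, an SD of 0.053 within groups, where the median of block genes at least as bright as Bcorl1 was 0.16. Its difference was 0.02, with an interval of -0.12 to 0.16. Cbl, a ubiquitin ligase that ends signalling from receptors such as Kit, read 10.09, 9.67, 10.12, 9.94 and 10.19 on Jam2+ arrays. It read 10.01, 9.78, 9.82, 9.91 and 10.15 on Jam2- arrays. The number 2 arrays were the lowest and the number 6 arrays the highest in both groups. Its difference was 0.07, with an interval of -0.18 to 0.32.

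**Figure D3:**
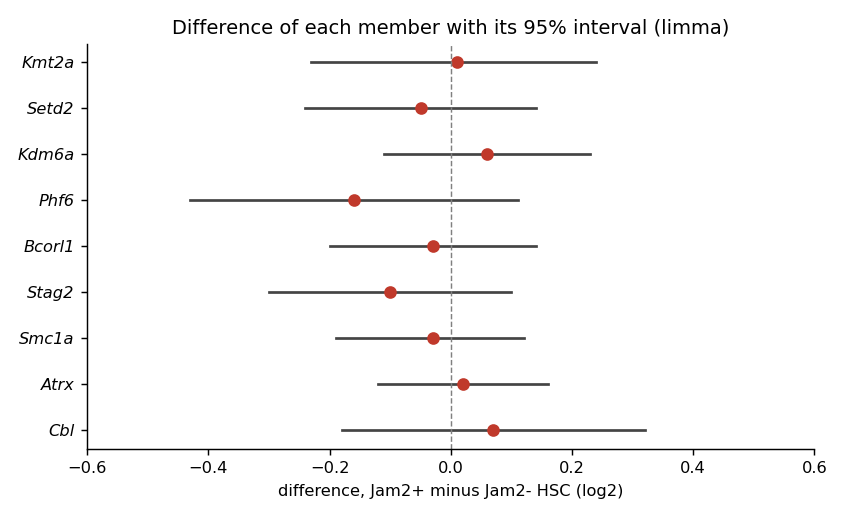
Difference between the group means, Jam2+ minus Jam2- HSC on the log2 scale (x axis), for each of the 9 genes (y axis); points are estimates and lines 95% intervals from limma, with 5 arrays a group. All 9 intervals contain 0, and they reach from -0.43 (Phf6) to 0.32 (Cbl).

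As folds, the 9 intervals ran from 0.744 (the lower bound of Phf6) to 1.25 (the upper bound of Cbl). These bounds are for each gene alone and cover the spread between these arrays. Differences were above 0 for 4 of the 9 genes, with a median of -0.03. Among the 753 block genes at least as bright as Bcorl1, 44.8% were above 0, with a median of -0.01. The median SD within groups was 0.12 over the 9 genes and 0.16 over those 753.

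Further genes of the same pathways were counted in 9 lists, of which 40 genes not among the 9 fell in the block (Usp9x stands in 2 lists). Of these, 0 were called higher and 0 lower in limma, 1 of 40 had an unadjusted p under 0.05, against 4.23% of block genes, and the median difference was 0.00. In the list of H3K4 methylation and COMPASS subunits, the partners of Kmt2a and its relatives, 0 of 2 passed: Hcfc1, a cofactor, differed by 0.00 (rounded) and Wdr82, a subunit of the SETD1 complexes, by -0.39 with an interval of -0.81 to 0.04. For Wdr82, Jam2+ arrays spanned 7.90 to 8.89 and Jam2- arrays 8.62 to 9.29. Of 4 histone demethylases, 0 passed; Kdm5c, an X-linked demethylase, differed by -0.09 and its Y-linked relative Kdm5d by 0.00. Of 2 other methylation genes, 0 passed; Dnmt1, which copies DNA methylation after replication, differed by 0.13 with an interval of -0.11 to 0.36, and the arginine methyltransferase Carm1 by -0.01. Of 2 Polycomb genes, 0 passed; Rbbp7, a histone chaperone, differed by 0.03 and Scml2 by 0.00 (rounded).

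In the cohesin list 0 of 2 passed, Stag1 and Hdac8, the deacetylase that recycles cohesin, which differed by -0.02. Of 4 remodellers 0 passed; the SWI/SNF subunits Smarca4 and Smarcc1 each differed by 0.02. Of 8 acetylation and bromodomain genes 0 passed; Ogt, which adds a sugar to nuclear proteins, differed by 0.09 and Msl2 by -0.03. Of 5 genes of ubiquitin ligases and receptor signalling 0 passed; the ligases Nedd4 and Huwe1 differed by 0.01 and -0.01. Of 12 other genes mutated in leukaemia 0 passed; Med12, a Mediator subunit, differed by 0.00 and Npm1 by -0.05, though near-identical copies make the row of Npm1 uncertain. The range over these 12 was -0.20 to 0.30.

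Chek1, the checkpoint kinase that guards DNA replication, was the 1 related gene with an unadjusted limma p under 0.05. The Jam2+ arrays averaged 8.23 ± 0.06 (SD, n = 5) and spanned 8.14 to 8.31. The Jam2- arrays averaged 7.93 ± 0.19 (SD, n = 5) and spanned 7.62 to 8.14. The ranges met at 8.14 without crossing. The groups were separate for 1 of the 40 related genes, this one, and for 0.992% of block genes. The difference was 0.30, with an unadjusted limma p of 0.00928, an adjusted p of 1 and an exact permutation p of 0.00794. That is the smallest p of a test that takes all 10 arrays as independent. Arrays that share a mouse are not, and no paired permutation test was run. Chek1 did not pass the test over all rows. Usp9x (difference -0.20) and Morf4l2 (-0.19) had exact permutation p-values of 0.0238 and 0.0476 and unadjusted limma p-values of 0.053 and 0.093. Neither was called in limma.

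**Figure D4:**
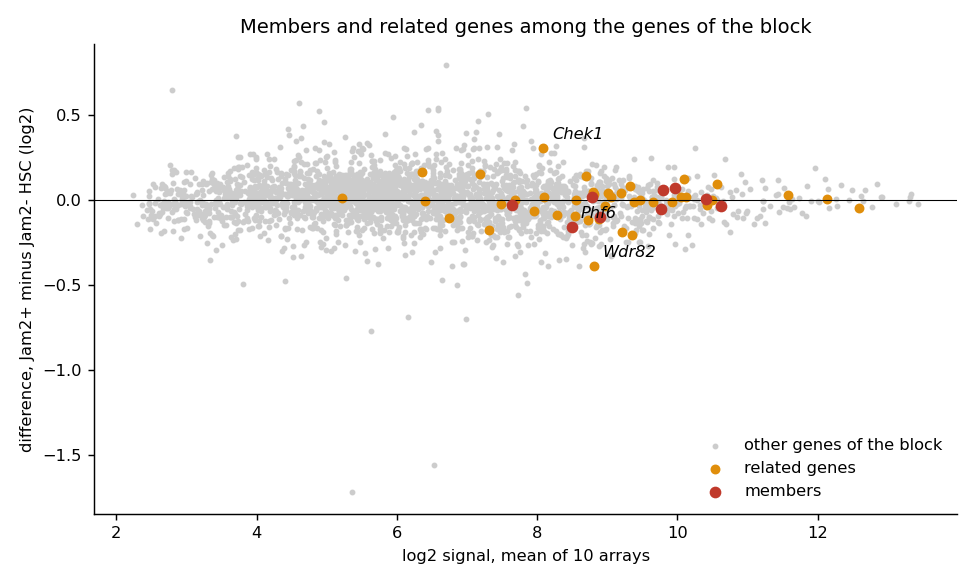
Difference between Jam2+ and Jam2- HSCs on the log2 scale (y axis) against mean log2 signal over 10 arrays (x axis) for the 9 genes (red), 40 related genes (orange) and the other genes of the block (grey). The 9 genes lie between -0.16 and 0.07; Chek1 (0.30) and Wdr82 (-0.39) are the related genes farthest from 0.

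The 9 genes were also compared with each other across the 10 arrays, in 36 pairs. Pearson's r had a median of 0.15 and was above 0 for 23 pairs, and 0 pairs passed after Benjamini-Hochberg adjustment. Kmt2a and Cbl had the highest value, r = 0.83 (permutation p = 0.00191, adjusted p = 0.0688) with Spearman's rho of 0.78 (permutation p = 0.00999, adjusted p = 0.36). The r was 0.84 for deviations from the group means, 0.83 without the 2 arrays that stood apart, and 0.74 without the 2 arrays farthest from the median of Kmt2a. Jam2+ replicate 2 was lowest for both genes, and both number 6 arrays were highest for both. Of 1360 block genes at or above the median level, 3 had an r with Kmt2a at least as high, Cbl included. Smc1a and Atrx followed, with r = 0.60 (permutation p = 0.0673, adjusted p = 0.833) and rho = 0.65 (permutation p = 0.0492, adjusted p = 0.726). For that pair r was 0.53 without the 2 arrays farthest from the median of Smc1a. Among 1360 genes, 52 had an r with Smc1a at least as high as Atrx had, Atrx included. For Atrx, 22 had an r at least as high as Smc1a had, Smc1a included. Arrays that share a mouse are not independent, and these p-values do not allow for it.

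**Figure D5:**
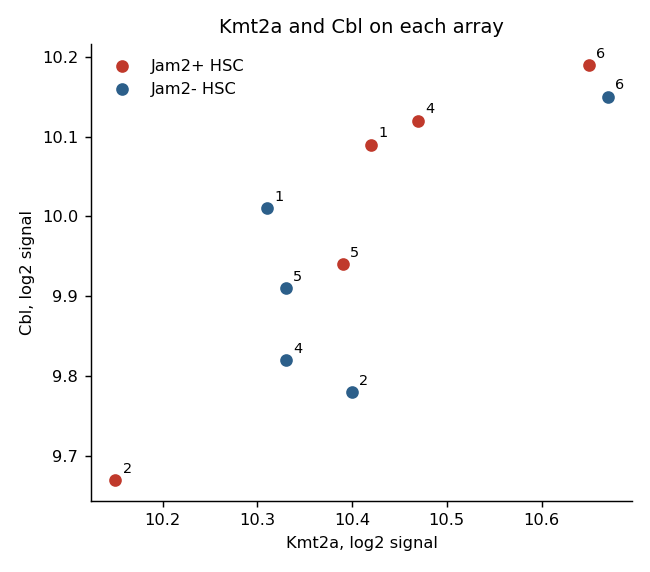
Log2 signal of Cbl (y axis) against that of Kmt2a (x axis) on each Jam2+ (red) and Jam2- (blue) array, with the array's number beside its point. Pearson's r was 0.83 over 10 arrays (adjusted permutation p = 0.0688 over 36 pairs).

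The block gene whose values followed each of the 9 most closely had an r of 0.73 to 0.94 over the 10 arrays, among 1360 genes compared. For Kmt2a this was Mmp10 (0.91), for Cbl Klhl18 (0.85), for Setd2 Jrkl (0.85) and for Kdm6a Lrrc49 (0.90). It was Rcn2 (0.89) for Phf6, Zdhhc3 (0.94) for Bcorl1, Adam10 (0.92) for Stag2, Gfod2 (0.92) for Smc1a and Ptpn9 (0.73) for Atrx. These are the highest of many values over few arrays and describe likeness only. The cohesin partners Stag2 and Smc1a had r = 0.34 (permutation p = 0.348, adjusted p = 0.833) and rho = 0.32 (permutation p = 0.366, adjusted p = 0.822). Their r was -0.08 without the 2 arrays farthest from the median of Stag2. Whether these 2 values of r differ was not tested.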

How the data were processed

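RNA of sorted Jam2+ and Jam2- HSCs was hybridised to 10 single-colour arrays. The deposited values are log2 signals, 1 per row and array, made by the authors with the R package oligo, per the submitters' processing notes; its version, and how background and scale were treated, are not stated in the sources used here. The last 13.5% of IDs were set on the first rows of the table, an inferred placement. Of these IDs 2872 name 1 gene, 397 several and 2293 none by the platform's annotation; the brightest row stood for a gene, which left 2721, of which 2664 matched RefSeq by Entrez identifier. limma's lmFit and eBayes were fitted to all 41345 rows without a block, with Benjamini-Hochberg adjustment over all rows and a threshold of 0.05. The procedure was tried on simulated data, with added differences larger than those of the 9 genes and no arrays that share a mouse. It does not show how well differences as small as theirs would be found. Each of the 9 genes had an exact permutation test too (two-sided, all 10 arrays taken as independent, smallest p 0.00794). Pairs of genes were tested with 100000 two-sided permutations. Arrays give no read depth; their number limits the precision. Genes and lists were chosen with earlier results of these data known. Named were the 9 genes, their paralogues, and the gene most like each of the 9. From each list, the 2 brightest genes in the block and any with an unadjusted limma p under 0.05 were named. Usp9x and Morf4l2 were named for their exact permutation p. The HSC, neutrophil and sex markers, Kdm5d included, were named as checks. The pattern of family names by chromosome, the motifs and the promoters printed were chosen after values had been seen. The fit was repeated with a block for the replicate number, without each array, with a trended or robust variance, with weighted arrays, after centring or quantile normalization, without dim rows, and on the block genes alone. Software was limma 3.58.1 in R 4.3.3, and Python 3.11.15 with pandas 2.3.3, numpy 2.4.6, matplotlib 3.10.9 and scipy 1.17.1.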

Additional observations from a re-analysis of the deposited data

Results flagged for a closer look

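Of 18 groups of 5 arrays (9 genes in Jam2+ and Jam2- HSCs), 1 held an array far from the others, where chance flags about 1 in 20 groups. Kmt2a on Jam2- replicate 6 read 10.67, while the next highest of the Jam2- arrays read 10.40. The same array had the lowest mean correlation with the other arrays, 0.968. Kmt2a read 10.65 on Jam2+ replicate 6, whose mean correlation with the other arrays was 0.978. The cause of the high value was not tested.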

How the results depend on the processing

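None of the 9 genes was called under any of 19 alternatives, and over 162 recomputed differences the values ran from -0.23 to 0.15; the lowest limma adjusted p was 0.899. Signs changed in 11 of them, all of differences near 0; the cause was not tested. With 1 array left out, Kmt2a ran from -0.0525 to 0.0719, Setd2 from -0.0970 to 0.000101, Kdm6a from 0.0208 to 0.0832 and Bcorl1 from -0.0814 to 0.00348. Kmt2a was -0.0188 without Jam2- replicate 1, -0.00838 without Jam2+ replicate 4, -0.0138 without Jam2- replicate 4, -0.0140 without Jam2- replicate 5, -0.0525 without Jam2+ replicate 6, and -0.0177 with arrays centred on their medians. With that centring Atrx was -0.00335. Setd2 was 0.000101 without Jam2- replicate 4, and Bcorl1 was 0.00348 without Jam2- replicate 6. Without both arrays that stood apart, a run chosen after the data were seen, Kdm6a was -0.00766 and Bcorl1 0.0208. Over all rows 0 were called lower under every alternative, and 0 to 1 were called higher with single arrays left out, the 1 without Jam2+ replicate 6. Fitted alone, 132 of the 2721 block genes had an unadjusted limma p under 0.05. In the fit of all rows, 115 of the same 2721 genes (4.23%) did. With the replicate number as a block, 0 rows were called and 1877 had an unadjusted limma p under 0.05, against 1688. The labels do not say that a number is a mouse, so the main fit did not pair the arrays. Deviations of same-numbered arrays correlated at -0.02 to 0.114. What arrays that share a mouse would give is not known here, so these values do not tell whether the numbers pair the arrays. The gap between ribosomal and receptor medians (11.63 and 3.63) fell to 3.91 with the block set 1 row earlier, 3.88 with it 1 row later and 0.84 as deposited. Chek1 kept its direction under 18 of 18 alternatives, from 0.23 to 0.36, and was not called (smallest adjusted p = 0.865). The mean over several rows of a gene gave no other value, as each of the 9 genes has 1 row.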
